A study of Drosophila melanogaster with 14 samples.

Results

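The genes described here are the odorant receptor (Or) and gustatory receptor (Gr) genes of Drosophila melanogaster, and the measurement is when in S phase their DNA was copied in stem-cell-like nuclei of testis tumours. They were taken as every annotated protein-coding gene whose symbol is Or or Gr followed directly by a number. This rule uses no measured value. It gave 59 Or and 60 Gr genes, 119 of 13968 coding genes, and all 119 had a value after bins at 0 had been left out. Each gene was read from the 10 kb bin that holds its start in the dm6 build. The 119 genes fall into 91 bins, so genes that share a bin share every value below and are not independent of each other.

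Insects smell with odorant receptors, which are ligand-gated channels that work together with the co-receptor Orco, and taste with gustatory receptors, which respond to sugars, bitter compounds, carbon dioxide and some pheromones. Most of these genes are used in a few sensory neurons of the antenna, the palp, the mouthparts or the legs, and many lie in the genome as small tandem arrays. In fly cells, as in other animals, DNA around widely used genes is usually copied early in S phase, and gene-poor or silent DNA is usually copied late. Expression was not measured in the data used here.

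Both tumours were made by driving the ligand Unpaired (Upd), which activates JAK-STAT signalling in the testis niche. In the GSC-like group, named after germline stem cells, GAL4::VP16-nanos.UTR drove UAS-Upd in the germline of flies that also carried y[1], w[1118] and P{hs70FLP}. In the CySC-like group, named after the somatic cyst stem cells, traffic Jam-GAL4 drove UAS-Upd in cyst cells of w[1118] flies. Both groups carried UAS-FRT-H3-GFP-FRT-H3-mKO, whose GFP-tagged histone served to sort nuclei of the driver's lineage, and no group without Upd was analysed here. Each preparation pooled 100 to 200 testis pairs, so a value is an average over many animals and over all sorted nuclei. Ages are not given in the labels.

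A BrdU pulse of 15 minutes marked newly made DNA. Sorting of nuclei by DNA content gave 4 S-phase fractions, abbreviated E for early, EM for early-mid, ML for late-mid and L for late, and BrdU-containing DNA was sequenced (Repli-seq). There were 14 libraries from 4 biological replicates, 2 for each cell type. For CySC-like replicate 1 only E and L are analysed here. Libraries held 49.1 to 86.2 M reads in GSC-like replicate 1 but 0.516 to 7.05 M in the second, and 74.1 to 144 M among the CySC-like ones. Paired-end reads were used for GSC-like replicate 2 alone, so in that cell type depth and read layout change with the replicate and cannot be told apart. The median receptor bin held from 27.7 reads in the shallowest library, ML of GSC-like replicate 2, to 10459 reads in L of CySC-like replicate 1. As the libraries are of DNA, the labelled cell types could not be checked against expressed markers.

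Tandem copies are part of what these genes are, and their likeness decides how well a short read can be placed. Within loci, defined as runs of receptor genes whose neighbouring starts lie at most 50 kb apart, 71 pairs of genes of the same family were compared over their coding sequence. Identity had a median of 52.6%, and 2 pairs exceeded 80%. The first 30 coding bases of both those pairs and of the latest pair of all are shown, 5′ to 3′. These pairs range from near-identical copies, which short reads may fail to tell apart in places, to copies that differ at many bases. Capitals mark bases that differ between the members of a pair.
Or19a: atggacatatcgaaggtggattcaacgagg
Or19b: atggacatatcgaaggtggattcaacgagg
Or22a: atgttaagcAagttTtttccccacatAaaa
Or22b: atgttaagcCagttCtttccccacatTaaa
Or94a: atggaTAAACACaaGGATcGCaTtgAATCc
Or94b: atggaGTCTACAaaTCGCcTAaGtgCCATc
They were read from the RefSeq dm6 sequence at chrX:20143159-20143188 (minus strand), chrX:20094398-20094427, chr2L:1520613-1520642, chr2L:1522703-1522732, chr3R:22987281-22987310 and chr3R:22989295-22989324 (plus strand for the other 5). All are the start of the first coding exon. Or19a and Or19b, receptors for citrus terpenes whose starts lie 48.8 kb apart, were 99.5% identical over 1161 coding bases, with an unbroken shared run of 282 bases. Or22a and Or22b, receptors for fruit esters in the same antennal neurons, were 83.3% identical. Or94a and Or94b, known from larval olfactory neurons, were 62.6% identical. How reads with several matches were placed is not given in the sources used here, so the values of the 2 Or19 bins may share reads, and the coding copies make up only part of a 10 kb bin.

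Timing is given as log2(E/L), in which rescaled RPKM (reads per kb per M reads) of E is divided by that of L from the same replicate, with 0.1 RPKM added to each. Higher values are earlier. Scaling between the E and the L library sets its zero, so the receptor genes were set against all coding genes of the same replicate. The median log2(E/L) of the 119 receptor genes was 0.15 and 0.59 in GSC-like replicates 1 and 2, and -0.39 and 0.14 in CySC-like replicates 1 and 2. Over all coding genes it was 0.34, 1.36, 0.56 and 0.39 in the same order. The receptor genes therefore lay lower in all 4 replicates, by 0.19, 0.77, 0.95 and 0.25, which gives -0.48 ± 0.41 for GSC-like, -0.60 ± 0.49 for CySC-like (mean ± SD, n = 2 each). The offset varied between replicates of a cell type by about as much as its own size, and the 2 cell types overlapped. No test was made of this offset, since genes of a locus share bins. Nor was it tested between the cell types, where 2 replicates against 2 cannot give an exact p below 0.333.

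**Figure D1:**
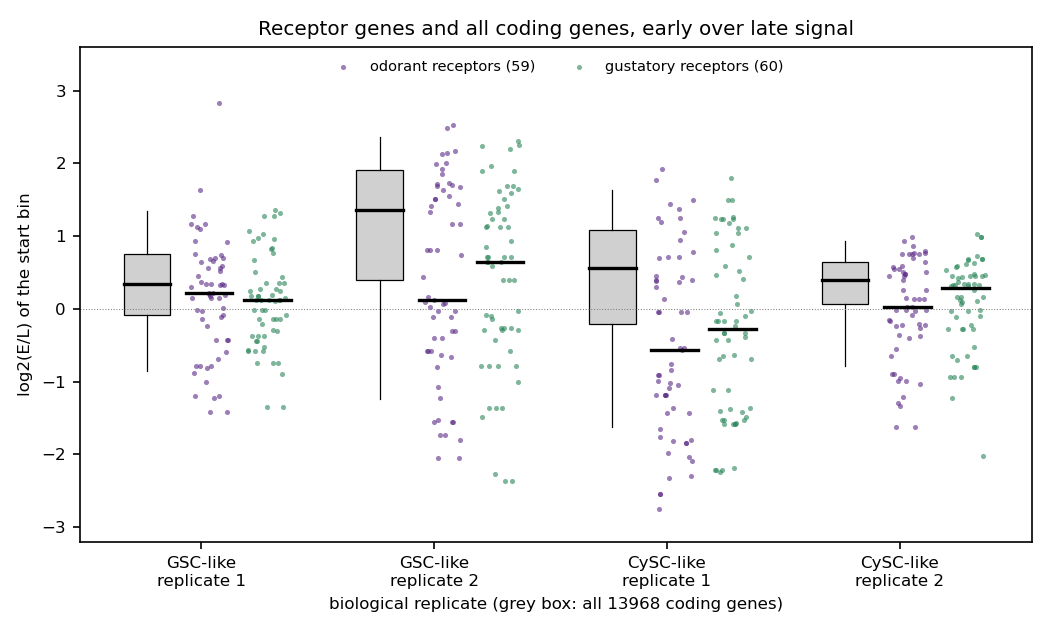
log2(E/L) of the start bin by replicate. Grey boxes span the 25th to 75th percentile of all 13968 coding genes with whiskers to the 5th and 95th, points are the 59 odorant and 60 gustatory receptor genes, and thick lines are medians. The lines of both families lie below those of all coding genes in every replicate.

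The shift was not uniform. Receptor genes ran from -1.42 to 2.83 and from -2.37 to 2.53 in GSC-like replicates 1 and 2, and from -2.75 to 1.92 and from -2.02 to 1.03 in CySC-like replicates 1 and 2. By percentile among all coding genes, which removes offset and spread, their medians were 37.9, 28.8, 21.4 and 29.2. Of the receptor genes, 30.3%, 43.7%, 47.1% and 36.1% were among the latest 20% of coding genes in the same order of replicates. Below the median of all coding genes in all 4 replicates lay 47 receptor genes (39.5%), against 18.4% of coding genes, and above it in all 4 lay 10 (8.4%), against 14.4%. The remaining genes changed side of that median between replicates. Tandem genes weigh on this count: below the median in all 4 replicates were 30 of 91 (33.0%) with 1 gene per bin. With only the first gene of each run of neighbouring receptor genes, 22 of 78 (28.2%) were.

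Odorant receptors were 0.12, 1.23, 1.13 and 0.36 lower than all coding genes in the 4 replicates, and gustatory receptors 0.22, 0.72, 0.84 and 0.10 lower. Which family was later thus changed between replicates: gustatory receptors in GSC-like replicate 1 and odorant receptors in the other 3. The 16 genes among the latest 20% in all 4 replicates (13.4% of receptor genes, against 6.40% of coding genes) were 10 Or and 6 Gr genes in 12 bins, none of them on the X. The only receptor gene among the earliest 20% in all 4 replicates was Or47a, an antennal receptor.

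**Figure D2:**
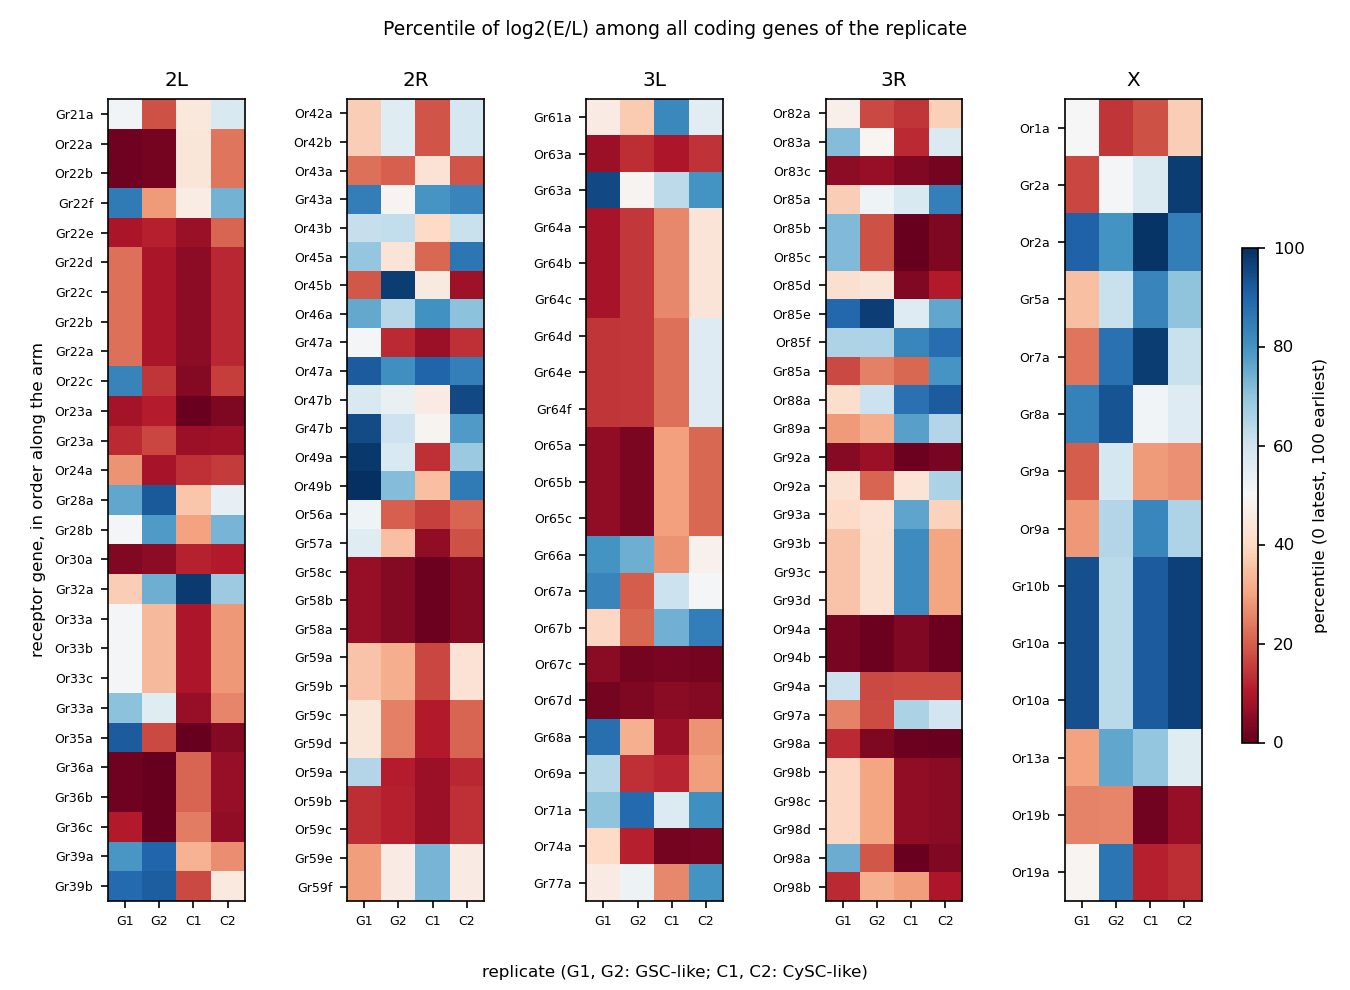
Percentile of log2(E/L) of each receptor gene among all coding genes of the replicate, by chromosome arm and in order along it. Columns are the 2 GSC-like (G1, G2) and 2 CySC-like (C1, C2) replicates, red is late and blue early. Or94a and Or94b are among the latest 5% in all 4 columns, and the genes of 1 bin form blocks of equal colour.

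The latest receptor genes were Or94a and Or94b, which share a bin on 3R. Rescaled signal of that bin in E and L was 2.84 and 6.62 RPKM in the first GSC-like replicate, 1.13 and 4.99 in the second, 2.36 and 8.73 in the first CySC-like replicate and 4.09 and 12.8 in the second. This gave log2(E/L) of -1.19, -2.05, -1.85 and -1.63, and percentiles of 2.46, 1.13, 3.55 and 1.14. L exceeded E in all 4 replicates. With limma, fitted over all 13746 bins with Benjamini-Hochberg adjustment, L was above E in GSC-like (-1.62 ± 0.44 SE, adjusted p = 0.0112, n = 2) and in CySC-like (-1.74 ± 0.44 SE, adjusted p = 0.00922, n = 2).

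Next came Or67c and Or67d, whose starts lie 28.5 kb apart on 3L, and Gr92a on 3R. Or67c, an antennal receptor, had log2(E/L) of -0.88 and -1.80 across the 2 GSC-like replicates, -1.98 and -1.29 across the 2 CySC-like ones. Or67d, the receptor for the male pheromone cis-vaccenyl acetate, had -1.23 and -1.53 across the 2 GSC-like replicates, -1.65 and -0.90 across the 2 CySC-like ones. Gr92a had -0.90 and -1.0 across the 2 GSC-like replicates, -2.24 and -1.23 across the 2 CySC-like ones. In these bins the cell types overlapped for Or67c and Or67d, while both GSC-like values of Gr92a lay above both CySC-like values. Or67c was called higher in L in both cell types (adjusted p = 0.0263 and 0.0149 in limma), Or67d in GSC-like (0.021, against 0.0505 in CySC-like), and Gr92a in CySC-like (0.00884, against 0.0863 in GSC-like).

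At the other end stood 5 genes in 3 bins, Or2a, Or47a and the X-linked bin of Or10a, Gr10a and Gr10b. Or10a, a receptor for methyl salicylate, and Gr10a have the same annotated start. Their bin had log2(E/L) of 1.28 and 1.69 across the 2 GSC-like replicates, 1.49 and 0.99 across the 2 CySC-like ones. Or2a on the X had 1.13 and 2.00 across the 2 GSC-like replicates, 1.92 and 0.75 across the 2 CySC-like ones, and Or47a on 2R had 1.17 and 2.01, then 1.45 and 0.75. All 12 of these values were above 0, and in each bin the 2 cell types overlapped. All 3 bins were called higher in E in GSC-like (adjusted p = 0.0191 at Or10a, 0.0155 at Or2a and 0.0099 at Or47a in limma), and in CySC-like none was (0.0711, 0.0523 and 0.0782 in the same order).

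Among receptors by known role, the 6 listed pheromone receptors were all Or genes, although some gustatory receptors also respond to pheromones. The median of the 6 genes lay 1.13 and 2.90 below all coding genes in the GSC-like replicates, and 0.60 and 0.40 below in the CySC-like replicates. Of these genes 3 share the Or65 bin, whose value of -0.79 was itself the median in GSC-like replicate 1. Counting by gene gives that bin the weight of 3 genes, so the roles are not ranked by their medians here. By bin the list was split in GSC-like: Or67d and the Or65 bin were below 0 in both replicates, Or47b and Or88a above 0. Or65a, Or65b and Or65c, of which Or65a responds to cis-vaccenyl acetate, share a bin on 3L with log2(E/L) of -0.79 and -1.56 across the 2 GSC-like replicates, -0.04 and -0.01 across the 2 CySC-like ones. Both GSC-like values were lower than both CySC-like values there. In GSC-like 4 of the 6 genes were called higher in L (Or67d and the 3 Or65 genes of a shared bin), against 3.99% of all coding genes. Or47b, a receptor for fatty acid esters that promotes male courtship, was not late, with 0.46, 1.45, 0.45 and 0.94 in the 4 replicates. Or88a, which senses related esters, likewise had positive values of 0.21, 1.63, 1.38 and 0.86.

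The 10 receptors known from larvae were lower than all coding genes in every replicate, with medians 0.47 and 1.85 lower in GSC-like and 1.57 and 0.68 lower in CySC-like. Of these, 7 lay below the median of all coding genes in all 4 replicates. Or94a and Or94b were called higher in L in both cell types. Or74a was called in CySC-like (-2.04 and -1.21, adjusted p = 0.0139 in limma), where its GSC-like values were 0.19 and -0.59. None of the 10 was called higher in E, against 17.6% of receptor genes and 32.6% of all coding genes in GSC-like. In CySC-like 0 of all 119 receptor genes were called higher in E, against 1.51% of all coding genes. With only 10 genes, of which Or94a and Or94b share a bin, these counts do not set the list apart from the other receptor genes. The list is a choice of genes and does not stand for larval receptors as a whole.

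The 15 odour receptors were spread over nearly the whole range, from a mean percentile of 4.44 for Or83c, a farnesol receptor, to 86.4 for Or10a. Called higher in E in GSC-like were Or10a, Or43b and Or49a, a receptor for the scent of parasitoid wasps. Called higher in L were Or22a and Or22b in GSC-like, and Or35a and Or83c in CySC-like. Or56a, the geosmin receptor, had 0.37 and 0.09 across the 2 GSC-like replicates, -0.76 and -0.02 across the 2 CySC-like ones, close to 0 in 2 of 4 replicates. Or82a, a receptor for geranyl acetate, and Or42a and Or42b, receptors for fruit esters, lie in the pericentromeric part of their arms, and the other 116 receptor genes on the arms proper. Or42a and Or42b share a bin with 0.15, 1.51, -0.54 and 0.48, and Or82a had 0.31, -0.11, -0.84 and 0.26, so neither bin was uniformly late.

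Of the 9 sugar receptors, 6 form the Gr64 cluster on 3L in 2 bins. The bin of Gr64a, Gr64b and Gr64c had log2(E/L) of -0.58, -0.29, -0.16 and 0.32, and that of Gr64d, Gr64e and Gr64f -0.38, -0.26, -0.32 and 0.45. The cluster was below 0 in both GSC-like replicates and in CySC-like replicate 1, and above 0 in CySC-like replicate 2. With 6 of 9 genes in it, the median of the list lay 0.72, 1.62 and 0.72 below all coding genes in the first 3 replicates and 0.06 above in CySC-like replicate 2. The sugar receptors elsewhere were not late: Gr43a, the fructose sensor of mouthparts and brain, had 0.95, 1.33, 1.18 and 0.73 and was called higher in E in GSC-like (adjusted p = 0.0384 in limma). Gr5a, a trehalose receptor on the X, had 0.10, 1.65, 1.26 and 0.59.

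Carbon dioxide is sensed by Gr21a and Gr63a together, and these genes lie on different arms. Gr63a had 1.36, 1.32, 0.82 and 0.69 and was called higher in E in GSC-like (adjusted p = 0.0189 in limma), while Gr21a had 0.36, -0.03, 0.41 and 0.46 and was not called. The median of the 10 listed bitter receptors lay 0.17 and 0.35 above all coding genes in GSC-like, and 0.58 and 0.09 below in CySC-like. The list does not hold the Gr36 and Gr58 genes of bitter neurons, which were among the latest in GSC-like (mean percentile there from 0.877 for Gr36a to 5.42 for Gr36c), so it does not stand for bitter receptors as a whole. Of the 10 listed, 4 were called higher in E in GSC-like, against 32.6% of all coding genes, so the count does not set the list apart. These were Gr39a, Gr39b, Gr8a and Gr66a, the last a co-receptor used by most bitter neurons. Gr33a, another common bitter co-receptor, had 0.67 and 1.51 across the 2 GSC-like replicates, -1.49 and 0.07 across the 2 CySC-like ones. Gr28a and Gr28b, from a group with roles in heat, light and nucleoside sensing, were called higher in E in GSC-like, with 0.76 and 2.26 and with 0.36 and 1.97, and not in CySC-like.

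Clustered genes were later than lone ones. The 44 genes in loci of 3 or more lay 0.35, 1.62, 1.47 and 0.41 below all coding genes in the 4 replicates, and 27 of them (61.4%) lay below the median of all coding genes in all 4. The 57 genes that are the only receptor gene of their locus differed from all coding genes by 0.02, -0.19, -0.49 and 0.06, which is above 0 in 2 replicates and below 0 in 2. Counting each bin with its first gene only, the offset of the whole family was -0.12, -0.64, -0.79 and -0.13. Counting each locus with its first gene only, the offset was -0.06, -0.63, -0.64 and -0.06. No test was made between clustered and lone genes, as a locus gives several genes but 1 or 2 bins.

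The 12 loci of 3 or more genes were not alike. Gr58a, Gr58b and Gr58c, known from bitter neurons, share a bin with log2(E/L) of -0.75 and -1.36 across the 2 GSC-like replicates, -2.22 and -0.93 across the 2 CySC-like ones, and were called higher in L in CySC-like (adjusted p = 0.0214 in limma). The Gr36 genes, also of bitter neurons, were called higher in L in GSC-like. The bin of Gr36a and Gr36b had -1.35 and -2.37 there against -0.42 and -0.64 in CySC-like, while at Gr36c, with -0.52 and -2.26 against -0.23 and -0.70, the cell types overlapped. Of the 6 Gr22 genes, 4 share a bin with -0.14, -0.79, -1.59 and -0.28, while Gr22f, about 36.8 kb away from Gr22b by its start, had 0.97, 0.59, 0.46 and 0.63. The 4 Gr93 genes, among them the caffeine receptor Gr93a, were above 0 in all 4 replicates, with locus means of 0.16, 1.13, 1.17 and 0.21. Among all coding genes the locus had mean percentiles of 38.1, 42.6, 79.0 and 34.4, early in CySC-like replicate 1 only. The earliest locus was that of Or10a, Gr10a and Gr10b.

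Offsets were also taken by chromosome. The 14 X-linked receptor genes differed from all X-linked coding genes by -0.05, 0.14, 0.17 and 0.16 in the 4 replicates, and the 105 other genes differed from all coding genes by -0.19, -1.23, -1.10 and -0.27. Against the coding genes of their own arm, the medians were lower in all 4 replicates on 2L (by 0.29, 1.6, 1.48 and 0.35), on 2R (by 0.19, 0.31, 1.19 and 0.12), on 3L (by 0.70, 1.48, 0.71 and 0.08) and on 3R (by 0.23, 0.70, 1.11 and 0.38). By family this did not hold everywhere, as the 15 odorant receptors on 2R differed from their arm by 0.02, 0.19, -0.99 and 0.04. Or19a and Or19b were the lowest of the 14 X-linked receptor genes in CySC-like replicate 1, at -1.09 and -2.09. Whether the X differs from the other arms was not tested.

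Receptor genes lie in somewhat gene-poorer DNA. Within 50 kb of a receptor gene's start there was a median of 11 coding gene starts, against 15 for all coding genes. By this number, 31.9% and 28.6% of receptor genes fell into the 2 sparsest of 5 classes of all coding genes (up to 9 starts, and 10 to 13). These 2 classes held 3049 and 2725 of the 13968 coding genes. Start bins had a median GC content of 42.3%, against 43.7%, and receptor genes were shorter (1444 against 2165 bp). In the sparsest class the median of receptor genes lay 0.24, 0.77, 0.95 and 0.31 below that of all genes of the class, and in the next 0.11, 1.00, 1.79 and 0.58 below. In the middle class, with 17 receptor genes, the differences were -0.06, -0.11, -0.14 and 0.04, and in the fourth, with 20, they were -0.36, -0.50, -0.88 and -0.14. The densest class, which held 10 receptor genes, had differences of -0.01, -0.27, -0.26 and 0.06. With log2(E/L) corrected for GC content the offset of the family was -0.41 for GSC-like, -0.43 for CySC-like. The part that gene density has in the offset was not tested.

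Receptor bins lay on both sides of their surroundings. Set against the median of the bins within 100 kb on either side, the 91 receptor bins differed by a median of 0.06 and 0.16 across the 2 GSC-like replicates, -0.30 and 0.04 across the 2 CySC-like ones. From the 10th to the 90th percentile of these bins, the differences ran from -0.55 to 0.78, from -0.76 to 0.84, from -1.12 to 0.59 and from -0.39 to 0.40 in the 4 replicates, against SDs over all arm bins of 0.70, 1.24, 1.08 and 0.66. At Or94a and Or94b, log2(E/L) rose from -1.19, -2.05, -1.85 and -1.63 in the start bin to 0.75, 1.15, 0.92 and 0.57 at 200 kb to the right. At Or22a and Or22b the GSC-like replicates had -1.6 and -2.28 at 100 kb to the left and 0.94 and 1.21 at 100 kb to the right. Or49b was different: in GSC-like replicate 1 its bin lay 2.32 above the median of its surroundings, and in GSC-like replicate 2 by 0.71.

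**Figure D3:**
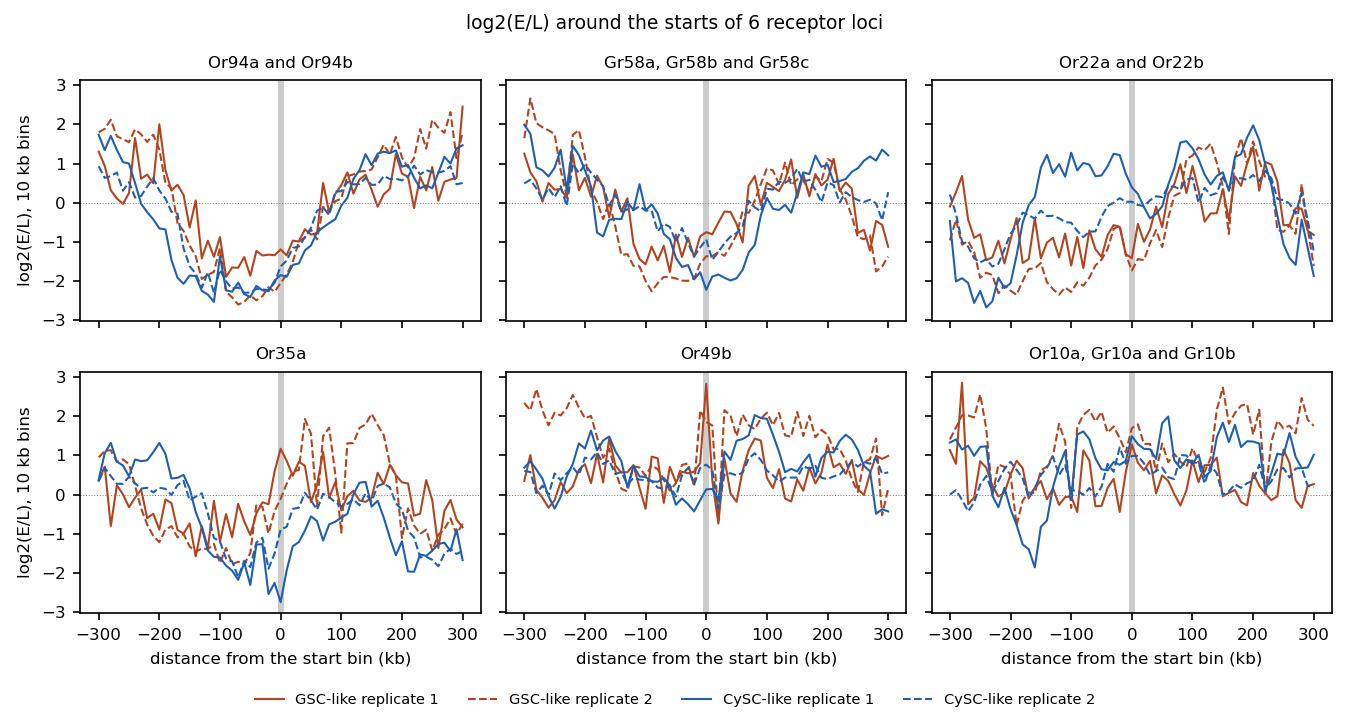
log2(E/L) in 10 kb bins within 300 kb of the start bin (grey) of 6 receptor loci, by distance from it in kb, for the 2 GSC-like (red) and 2 CySC-like (blue) replicates, solid for replicate 1 and dashed for replicate 2. Or94a and Or94b lie in a trough present in all 4 replicates, and at Or22a and Or22b both GSC-like lines lie below both CySC-like lines for 100 kb.

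Within each cell type, E was tested against L in the limma fit. In GSC-like, 21 receptor genes (17.6%) in 19 bins were higher in E at an adjusted p under 0.05, against 32.6% of all coding genes, and 12 (10.1%) in 7 bins were higher in L, against 3.99%. The 12 were Or22a, Or22b, Or65a, Or65b, Or65c, Or67c, Or67d, Or94a, Or94b, Gr36a, Gr36b and Gr36c. In CySC-like, 15 receptor genes (12.6%) in 11 bins were higher in L, against 4.15% of coding genes, and 0 were higher in E, against 1.51%. The 15 were Or23a, Or35a, Or67c, Or74a, Or83c, Or85b, Or85c, Or94a, Or94b, Or98a, Gr58a, Gr58b, Gr58c, Gr92a and Gr98a. Beside the count of 0, limma gave 12 receptor genes (10.1%) higher in E at an unadjusted p under 0.05, against 17.5% of coding genes. Voom on recovered reads, a count-based limma fit, called 19 of 119, against 22.6% of coding genes. Or67c, Or94a and Or94b were called higher in L in both cell types.

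The split between E and L rests on where 0 lies. With libraries scaled by their median bin, the median over all coding genes in GSC-like replicate 2 moved by -0.78, and the GSC-like calls became 4 receptor genes with more signal in E and 18 with more in L. With scaling on autosomal arm bins these counts were 7 and 19. The calls also rest on all 4 replicates, since each cell type has 2 and the fit shares its estimate of spread. Without GSC-like replicate 1 GSC-like had 37 calls higher in E and 13 higher in L, without GSC-like replicate 2 it had 1 and 0, and without either CySC-like replicate it had 0 and 0. CySC-like calls higher in L numbered 22 without either GSC-like replicate and 0 without either CySC-like replicate, and calls higher in E 8 and 0.

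The EM and ML fractions, which the ratio does not use, were available in 3 replicates. The highest of the 4 rescaled signals was in E for 33.6% of receptor genes in GSC-like replicate 1, 34.5% in the second and 17.6% in CySC-like replicate 2, against 53.9%, 57.8% and 30.3% of all coding genes. Receptor genes thus peaked in E less often than coding genes as a whole in all 3. Where they peaked instead differed: in EM in GSC-like replicate 1 (43.7%, against 22% of coding genes), in ML in GSC-like replicate 2 (42.9%, against 26.9%), and in ML (56.3%, against 49.97%) and L (22.7%, against 12.1%) in CySC-like replicate 2. The same fraction was highest in both GSC-like replicates for 54 receptor genes (45.4%), against 53.2% of coding genes, and these genes were 28 with E highest, 15 with EM, 11 with ML and 0 with L. In GSC-like replicate 2 the median receptor bin held 27.7 reads in ML, against 258 in E. Counting noise therefore limits both the ML share of that replicate and the match between the GSC-like replicates, and its part was not tested. In CySC-like replicate 2 the library labelled ML followed E more closely than the library labelled EM did (Spearman's rho across bins of 0.80 and 0.28), so the order of its middle fractions is uncertain. In the GSC-like replicates L followed E more closely than ML did (rho of 0.25 against 0.04 in the first, 0.13 against -0.39 in the second), so the similarity to E did not fall steadily from EM to L there, and this touches the L libraries that log2(E/L) uses. Bins of 1 library share depth and base composition, and these rho values are descriptions.

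**Figure D4:**
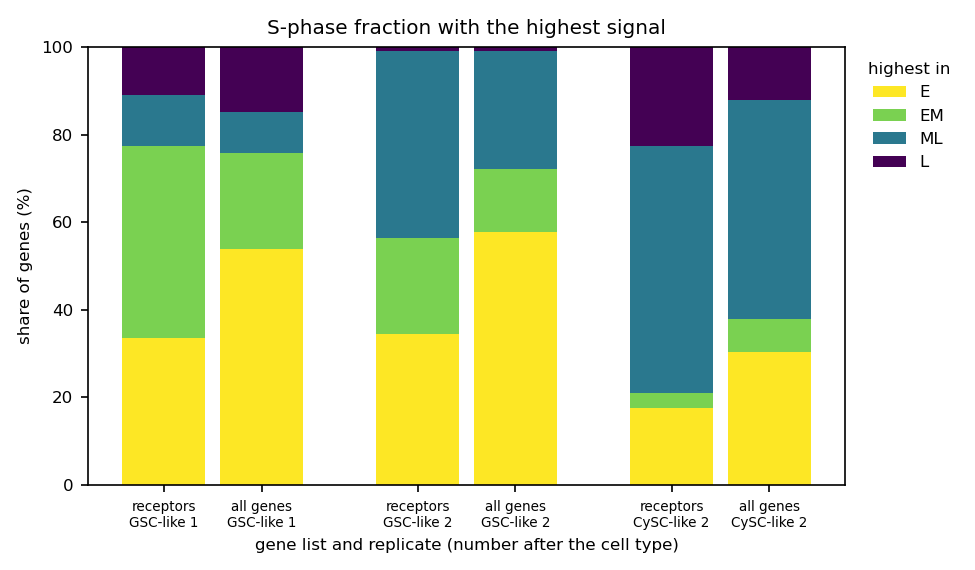
Share of genes (%) whose rescaled signal was highest in E, EM, ML or L, for the 119 receptor genes and all 13968 coding genes in the 3 replicates with 4 fractions. The E share is smaller for receptor genes than for all genes in each replicate.

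Between the cell types, no receptor gene differed past the threshold. The test of GSC-like against CySC-like log2(E/L) called 0 of 119 receptor genes earlier and 0 later in GSC-like, where it called 0.0573% and 0.0143% of coding genes. The lowest adjusted p among receptor genes was 0.275. At an unadjusted p under 0.05 limma gave 20 receptor genes earlier in GSC-like (16.8%, against 7.12% of coding genes) and 4 later (3.36%, against 1.43%), and voom on recovered reads called 1, Or49b (3.00, adjusted p = 0.0129), against 0.122% of coding genes called earlier. Both GSC-like replicates lay above both CySC-like replicates for 38 receptor genes (31.9%) in 32 bins, against 27.1% of coding genes, and below them for 14 (11.8%) in 8 bins, against 8.7%. By percentile the counts were 34 (28.6%, against 18.5%) and 26 (21.8%, against 19%). The shares by log2(E/L) and the share later by percentile stand near those of all coding genes, and these counts carry no test.

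The largest differences towards an earlier time in GSC-like were at Or35a, at Or85b and Or85c, at Or98a and at Or49b. Or35a, a broadly tuned receptor of the antenna, had E and L signals of 7.79 and 3.41 RPKM in the first GSC-like replicate, 2.42 and 2.62 in the second, 1.35 and 9.64 in the first CySC-like replicate and 5.98 and 11.2 in the second. Its log2(E/L) was 1.17 and -0.11 across the 2 GSC-like replicates, -2.75 and -0.90 across the 2 CySC-like ones, a difference of 2.35 ± 0.66 SE (adjusted p = 0.275 in limma). The groups did not overlap, but the spread within each was over 1 on the log2 scale. Without GSC-like replicate 2 the difference was 2.99 (adjusted p = 0.028 in limma), and without CySC-like replicate 1 it was 1.43 and not called. Or85b and Or85c share a bin with 0.70 and -0.03 across the 2 GSC-like replicates, -2.55 and -0.997 across the 2 CySC-like ones (2.10 ± 0.64 SE, adjusted p = 0.327).

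Or98a, which lies where 1 coding gene start was counted within 50 kb, had 0.75 and 0.03 across the 2 GSC-like replicates, -2.30 and -0.95 across the 2 CySC-like ones (2.01 ± 0.63 SE, adjusted p = 0.333 in limma). Or49b had 2.83 and 1.85 across the 2 GSC-like replicates, 0.13 and 0.77 across the 2 CySC-like ones (1.89 ± 0.62 SE, adjusted p = 0.344). In 50 kb bins the difference at Or49b was 0.62. At Or49b E exceeded L in all 4 replicates, and at Or98a L exceeded E in both CySC-like replicates. The non-overlapping values reached beyond the genes: runs of neighbouring bins with both GSC-like above both CySC-like replicates were 100 kb at Or35a, 100 kb at the Or85 genes, 130 kb at Or98a and 20 kb at Or49b.

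Towards a later time in GSC-like, the largest differences were at Or22a and Or22b, at Gr36a and Gr36b, and at the 3 Or65 genes. The Or22 bin had E and L signals of 3.52 and 9.56 RPKM in the first GSC-like replicate, 1.26 and 4.39 in the second, 10.7 and 8.11 in the first CySC-like replicate and 6.15 and 6.03 in the second. Its log2(E/L) was -1.42 and -1.73 across the 2 GSC-like replicates, 0.40 and 0.03 across the 2 CySC-like ones, a difference of -1.78 ± 0.60 SE (adjusted p = 0.344 in limma). Replicates of each cell type were close here, and the run of non-overlapping bins was 100 kb long with 11 coding gene starts. The Gr36 bin differed by -1.33 ± 0.63 SE (adjusted p = 0.496) and the Or65 bin by -1.15 ± 0.62 SE (adjusted p = 0.553), the latter within a run of 140 kb.

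**Figure D5:**
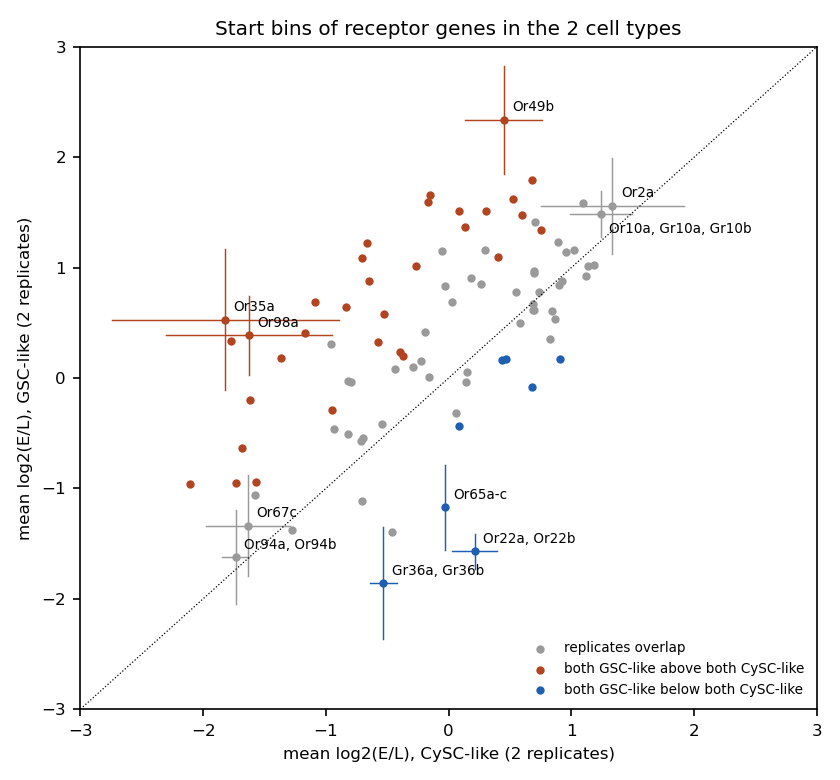
Mean log2(E/L) in GSC-like against CySC-like for the 91 bins with a receptor gene, with lines between the 2 replicates for the named genes. Colours mark bins where both replicates of a cell type lie on the same side of both of the other, and Or35a and Or22a stand on opposite sides of the dotted line of equality.

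The 5 genes called without GSC-like replicate 1 (Or85d, Or45b, Or19a, Gr33a and Gr39b, all earlier in GSC-like) were not called with it, and Or35a alone was called without GSC-like replicate 2. Or45b, a receptor of larval neurons, had -0.23 and 2.53 across the 2 GSC-like replicates, 0.44 and -0.55 across the 2 CySC-like ones, and only GSC-like replicate 2, the shallowest, was high. Median absolute differences between the 2 replicates of a cell type were 0.72 for receptor genes in GSC-like and 0.74 in CySC-like. Over all coding genes they were 0.84 in GSC-like and 0.57 in CySC-like, so receptor genes varied more than coding genes in CySC-like only.

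Other chemosensory genes differed from the receptors in part. The co-receptor gene Orco had 0.43 and 1.06 across the 2 GSC-like replicates, -1.20 and 0.46 across the 2 CySC-like ones (adjusted p = 0.558 for the difference in limma). The 60 ionotropic receptor genes (Ir) differed from all coding genes by 0.18, -1.03, -0.17 and 0.05, and the 52 odorant-binding protein genes by 0.15, -1.35, -0.42 and -0.11. Of the Ir genes, limma called 17 (28.3%) higher in E and 3 (5%) higher in L for GSC-like, 1 and 4 (6.67%) for CySC-like, shares near those of all coding genes. Of the odorant-binding protein genes it called 11 (21.2%) and 4 (7.69%) for GSC-like, 0 and 9 (17.3%) for CySC-like, against the 32.6%, 3.99%, 1.51% and 4.15% of all coding genes. Lists with other functions were the 70 cuticular protein genes, at 0.18, -0.22, -0.44 and 0.07, and the 92 cytoplasmic ribosomal protein genes, at 0.03, 0.52, 0.29 and -0.03. Of these lists, only the receptors were below all coding genes in all 4 replicates.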

How the data were processed

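The authors deposited a table of RPKM in windows of 3 kb stepping by 1 kb, a unit worked out from the values. In 100% of 3 kb windows the values gave whole reads, from which library totals were recovered. Bowtie2 2.4.5 and dm6 are named in the submitters' processing notes. How duplicates and multiply matching reads were treated is not given in the sources used here.

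Windows were averaged into 10 kb bins, libraries rescaled to an equal mean, 0.1 RPKM added and log2 taken, which understates changes of low bins. A bin was dropped if at least 4 of its 8 E and L values were 0, leaving 13746 of 13758. log2(E/L) per replicate was fitted with limma 3.58.1 (R 4.3.3, lmFit and eBayes with trend), 2 replicates against 2, adjusted by Benjamini-Hochberg over all bins at 0.05. Per the series' design text each replicate was split into its fractions, so each ratio holds its replicate (E and L deviations correlated at 0.52 for GSC-like, -0.06 for CySC-like). Simulated data served to check the fit.

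Genes are from Ensembl release 115 and sequences from RefSeq dm6. Named were receptors of listed roles, loci of 3 or more genes, the 5 earliest and 5 latest genes by mean percentile, the 5 largest differences in each direction among non-overlapping genes, and any called difference. Other genes, and all gene lists called by a test, were named after their values were seen. Members and lists were chosen with earlier results of these data known. Python 3.11.15, pandas 2.3.3, Biopython 1.88 and matplotlib 3.10.9 were used. Alternatives covered bin size, scaling, pseudocount, filters, blocks, normalization of ratios, GC content and left-out replicates.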

Additional observations from a re-analysis of the deposited data

Results flagged for a closer look

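In 13 receptor genes (10.9%, in 9 bins) both replicates of a cell type had log2(E/L) above 0 and both of the other below 0, against 6.12% of all coding genes. The share with GSC-like above 0 was 8.4% (10 genes), against 3.74%, and that with GSC-like below 0 was 2.52% (3 genes), against 2.38%. Genes of a bin share their values, so these shares carry no test. None of these differences passed the adjusted threshold in limma, and since the zero of the ratio moves with scaling, the opposite signs are a description. Higher in GSC-like were Or56a by 0.62 (adjusted p = 0.773), Gr57a by 1.48 (0.429), Gr59c and Gr59d by 0.90 (0.661), Or85d by 1.78 (0.344), Gr98b, Gr98c and Gr98d by 1.58 (0.388), Or98a by 2.01 (0.333) and Or19a by 1.88 (0.364). Lower in GSC-like were Or22a and Or22b by -1.78 (0.344) and Gr97a by -0.77 (0.731). Gr57a had 0.43 and 0.86 in the GSC-like pair of replicates, -1.57 and -0.10 in the CySC-like pair. Gr98b, Gr98c and Gr98d, of which Gr98b takes part in sensing canavanine, had 0.18 and 0.64, then -1.53 and -0.80. At Or56a and in the bin of Gr59c and Gr59d, CySC-like replicate 2 lay within 0.03 of 0.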

How the results depend on the processing

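The family's offset from all coding genes stayed below 0 in both cell types under all 19 alternatives run for it, between -0.77 and -0.19 in GSC-like and between -0.95 and -0.25 in CySC-like. For lone genes it turned positive in GSC-like without GSC-like replicate 2 (0.016) and in CySC-like without CySC-like replicate 1 (-0.494 to 0.0583 over left-out replicates). For X-linked genes in GSC-like it turned negative with 1 gene per bin (-0.0251) and without GSC-like replicate 2 (-0.0469 to 0.142 over left-out replicates). Calls between cell types, 0 as reported, were 0 to 5 with a replicate left out and 1 by voom. With a replicate block across cell types there were 0. Same-numbered log2(E/L) deviated in opposite directions (r = -0.25), and a block with crossed numbers gave 1 call. In GSC-like, calls higher in E (21) became 4 with median scaling, 7 with autosomal scaling, 9 by voom and 0 with no replicate block, and ranged from 0 to 37 with a replicate left out. Calls higher in L (12) became 19 with autosomal scaling, standardizing or quantile normalization, 7 with GC correction, voom or 1 gene per bin, and 0 with no replicate block, with 0 to 13 when a replicate was left out. In CySC-like, calls higher in E (0) became 1 in 50 kb bins, without bins under 1 RPKM and without trend, 8 standardized, 24 quantile normalized and 19 by voom, and 0 to 8 with a replicate left out. Calls higher in L (15) became 29, 26 and 9 when standardized, quantile normalized and GC corrected, and 0 with no replicate block, with 0 to 22 when a replicate was left out. Where a replicate was left out, fewer samples entered, and the lone one was assumed to vary like the others. Otherwise the cause was not tested. Depth limits GSC-like replicate 2 most. RPKM without rescaling, voom, gene start by lower coordinate, crossed numbers and 1 gene per bin were chosen after seeing the data.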
